A study of Homo sapiens with 11 samples.

Results

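MITF-only sites are DMSO MITF peaks that share no base with any DMSO peak of SOX10 or of AP-2. They were chosen by overlap of the deposited narrow peak lists of 92-1 cells, a human uveal melanoma line, and numbered 35344 of 89519 DMSO MITF peaks (39.5%). The other 54175 MITF peaks, called co-bound below, comprised 36450 with both factors, 10688 with SOX10 only and 7037 with AP-2 only. Cells had received DMSO, the solvent, or FHT-1015, an inhibitor of the paired ATPases SMARCA4 and SMARCA2, for 4 h. Chromatin was precipitated with antibodies against MITF, SOX10, AP-2 (named TFAP2A in the design of the study), SMARCA4 and acetylated lysine 27 of histone H3 (H3K27ac), so that 5 antibodies and 2 conditions gave 10 libraries, 1 of each kind. A DMSO input library was not analysed here. All values therefore come from a single cell line and from pairs of libraries without replicates, no test was possible, and the 95% Wilson intervals given in parentheses are over sites and cover counting error only.

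MITF is a basic helix-loop-helix leucine zipper factor that governs the pigment cell lineage. It binds as a dimer to E-boxes of the form CACGTG or CATGTG, and a thymine beside the latter gives TCATGTG, the M-box of pigment gene promoters. SOX10, a lineage factor of the neural crest, and AP-2 factors often occupy melanocyte enhancers beside MITF, and SMARCA4 is the motor of the BAF complexes that move nucleosomes at such enhancers. H3K27ac marks active enhancers and promoters.

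The overlap rule left few sites at promoters, and those are the sites whose DNA could be read from the RefSeq promoter table (GRCh38.p14, windows from 250 bases before to 50 bases after a start). Of 22078 windows of protein-coding genes, 144 windows of 135 genes held a MITF-only site and no co-bound MITF peak. The following stretches of up to 60 bases lie upstream of the start, on the strand of the gene, around the E-box nearest to the MITF summit, which is in capitals. They are shown because they display the kinds of E-box under sites with MITF in both conditions and under sites with MITF in DMSO only. They were chosen after their values were seen, as those with the highest DMSO MITF −log10 p whose motif lay within 100 bp of the summit and ended at least 15 bases before the start. Stronger retained sites such as WSB2 (22.2) and ACACA (21.4), whose E-box lay nearer the start, and PCGF2 (34.6), whose nearest E-box lay after it, are therefore not shown, nor is 1 lost locus without a gene name.

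The 6 with a MITF peak in both conditions:
ZNF93, chr19:19900778-19900837, plus strand: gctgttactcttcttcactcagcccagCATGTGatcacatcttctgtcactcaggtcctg
NR1D2, chr3:23945235-23945285, plus strand: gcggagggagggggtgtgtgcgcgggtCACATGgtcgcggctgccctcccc
ENO2, chr12:6914481-6914540, plus strand: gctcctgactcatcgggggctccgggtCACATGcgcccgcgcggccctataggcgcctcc
USF2, chr19:35268889-35268948, plus strand: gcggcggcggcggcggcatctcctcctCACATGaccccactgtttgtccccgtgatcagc
DCTN1, chr2:74380351-74380410, minus strand: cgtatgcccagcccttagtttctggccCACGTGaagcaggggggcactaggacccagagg
EML4, chr2:42169233-42169292, plus strand: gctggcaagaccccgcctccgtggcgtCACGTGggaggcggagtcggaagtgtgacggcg
The 3 with a MITF peak in DMSO only:
CNDP2, chr18:74499837-74499891, plus strand: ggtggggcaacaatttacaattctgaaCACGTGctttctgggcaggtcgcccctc
NOD2, chr16:50696797-50696856, plus strand: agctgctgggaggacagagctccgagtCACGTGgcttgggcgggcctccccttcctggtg
PARP15, chr3:122615477-122615536, plus strand: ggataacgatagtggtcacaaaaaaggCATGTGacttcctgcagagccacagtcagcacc

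Peak strength is given as the −log10 p that the authors' lists assign to a peak, here with the DMSO value before the FHT-1015 value. The site at NR1D2, which encodes the circadian repressor REV-ERB beta, stood at 22.1 and 22.2. It had no SMARCA4 peak in either library, and its H3K27ac peak was at 35.6 and 68.6. At USF2, which encodes another E-box-binding factor, MITF stood at 13.7 and 8.10 and H3K27ac at 101 and 147, again without SMARCA4. At the zinc finger gene ZNF93 MITF stood at 31.9 and 37.2, at EML4 at 12.9 and 20.3 and at the dynactin gene DCTN1 at 13.1 and 15.6. The value at ENO2, a glycolytic enzyme gene, was 16.0 and 5.58. The sites at CNDP2 (16.1), NOD2 (14.4) and PARP15 (11.4) had no MITF peak in FHT-1015, and of these CNDP2 alone had a SMARCA4 peak, at 5.28 and 2.79. None of the 9 had SOX10 or AP-2 in either condition.

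The M-type E-box CATGTG, searched on both strands, was in 42 of the 144 promoter windows with a MITF-only site (29.2%, 22.4 to 37.1). It was in 8.23% of 6849 windows with a co-bound MITF peak and in 8.96% of all windows. Its longer form TCATGTG, a subset of those matches, was in 25 windows (17.4%, 12 to 24.4), against 2.61% of windows with a co-bound peak and 2.32% of all. The palindrome CACGTG was as frequent in both classes, at 17.4% of windows with a MITF-only site and 17.6% with a co-bound peak, against 8.32% of all. The windows with a MITF-only site had a lower median GC content (53.3%) than those with a co-bound peak (66.3%). At the mean share of all windows in the same 1 of 5 equal classes of GC content, CATGTG would be in 11.7% and TCATGTG in 3.30% of the windows with a MITF-only site. Where the site had a −log10 p of at least 10, 17 of 34 windows held CATGTG (50%). The nearest CATGTG lay a median of 37.5 bp from the MITF summit over 40 genes, and the nearest CACGTG 42 bp over 25 genes.

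Windows whose site was retained held an E-box of either form in 33 of 52 cases (63.5%, 49.9 to 75.2), and windows whose site was lost in 32 of 92 (34.8%, 25.8 to 44.9). CACGTG was in 26.9% of the former and 12% of the latter, and CATGTG in 40.4% and 22.8%. Over all MITF-only sites, retained ones had a median of 12 reads at the summit and lost ones 9, and the part of strength in the motif difference was not tested. A match of these letters is a description of the window and not a mapped binding event.

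**Figure D1:**
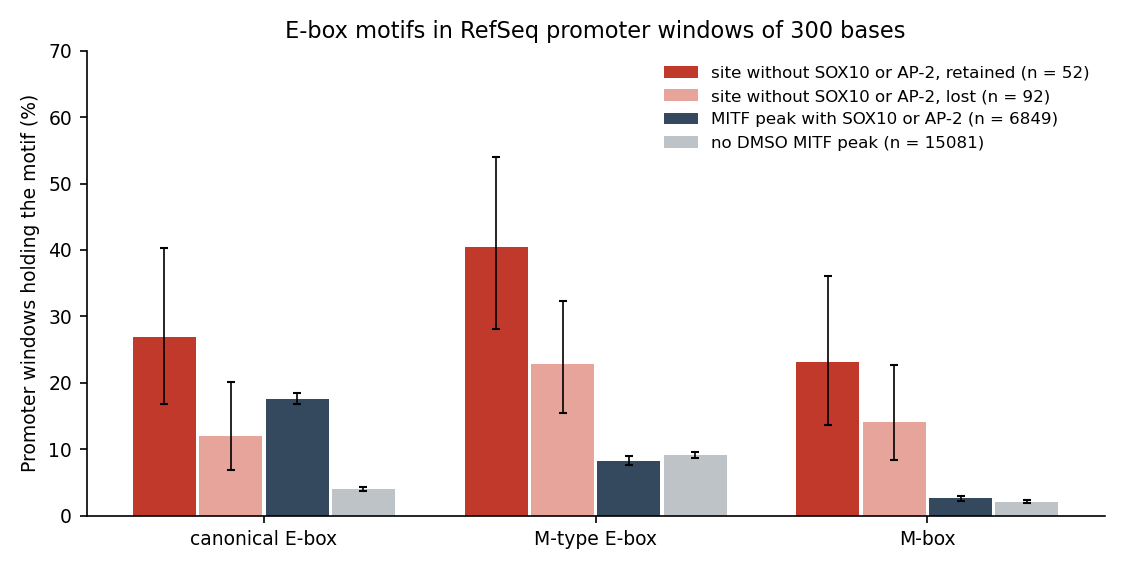
Share of RefSeq promoter windows of 300 bases that hold CACGTG (canonical E-box), CATGTG (M-type E-box) or TCATGTG (M-box) on either strand, with 95% Wilson intervals over windows. The M-type E-box was in 40.4% of windows with a retained MITF-only site and 22.8% with a lost one, against 8.23% of windows with a co-bound peak.

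MITF-only sites were weaker and farther from genes than co-bound peaks. Their median −log10 p was 4.80 (quartiles 3.84 and 6.67), against 10.9 for co-bound peaks, and their median fold enrichment 3.58 against 5.15. The median site rested on 10 reads at its summit, as recovered from fold and p, and the median co-bound peak on 22. A q-value under 0.05 was held by 82.6% of MITF-only sites and 94.4% of co-bound peaks. Still, 4246 sites reached a −log10 p of 10, 1030 reached 20 and 61 reached 50, and 66 stood in the top 10% of all DMSO MITF peaks. Sites were called boundary sites within 1 kb of a protein-coding gene start, or of either gene end for the 4213 of 20056 genes without a start in the promoter table, and distal otherwise. Only 881 MITF-only sites (2.49%) were boundary sites, against 19.1% of co-bound peaks, and 49.4% lay inside a protein-coding gene, against 55.9%. The median gap to the nearest DMSO SOX10 or AP-2 peak was 4.62 kb.

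The values just inside and just outside the rule were as follows. The 986 sites less than 100 bp from a SOX10 or AP-2 peak had a median −log10 p of 4.80, and the 1517 co-bound peaks that shared at most 100 bp with one had 4.70. A SMARCA4 peak lay over 31.6% of the former and 30.1% of the latter, an H3K27ac peak over 40.6% and 32.6%, and 27.3% and 23.7% were retained. Farther away SMARCA4 was rarer. At the 30775 sites 500 bp or more away its share was 5.74%, and at the 10114 sites 10 kb or more away it was 3.07%.

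The next comparison asked how many sites had a listed MITF peak again after SMARCA4 and SMARCA2 were inhibited. A site was called retained when an FHT-1015 MITF peak shared at least 1 bp with it. A lost site is thus one without a listed peak, which is not a measured absence of MITF. The FHT-1015 MITF list was no shorter, with 92716 peaks against 89519 in DMSO. Its median peak rested on 8 reads, against 15 in DMSO. Of the 35344 sites, 7327 were retained (20.7%, 20.3 to 21.2), against 36.2% of all DMSO MITF peaks and 46.4% of the co-bound ones. Since strong peaks were retained more often, each site was also given the retention of the co-bound peaks in its own decile (1 of 10 equal parts) of DMSO −log10 p. The share expected at equal strength was then 27.4%, so that MITF-only sites lay 6.65 percentage points below it (observed minus expected, −6.65). Against AP-2-only peaks the difference was 1.59 points, against SOX10-only peaks −2.98 and against peaks with both factors −10.9.

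The difference depended on position relative to genes. Of the 34463 distal sites 20.4% were retained and 20.5% were expected from distal co-bound peaks, a difference of −0.11 points. Matched on SMARCA4 and H3K27ac in DMSO as well as on strength, the difference over all sites was −0.43 points. Of the 881 boundary sites 33.5% (30.4 to 36.7) were retained and 55.7% were expected from boundary co-bound peaks, a difference of −22.2 points. Boundary sites were still retained more often than distal ones: the distal share minus the boundary share was −13.1 points, and −10.8 within deciles, against −34.0 within deciles for co-bound peaks.

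Among distal sites the direction turned with strength. In the 4 weakest deciles 12.4% of 21887 MITF-only sites were retained and 15.2% were expected. In the 6 stronger deciles 34.3% of 12576 were retained and 29.8% were expected, a difference of 4.46 points. The difference was −4.19 points in decile 1, 2.01 in decile 5, 7.24 in decile 7, 7.0 in decile 8 and 0.83 in decile 10, where 62 distal sites stood. Of 4105 distal sites with a −log10 p of at least 10, 48.7% (47.2 to 50.3) were retained and 41.9% were expected.

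**Figure D2:**
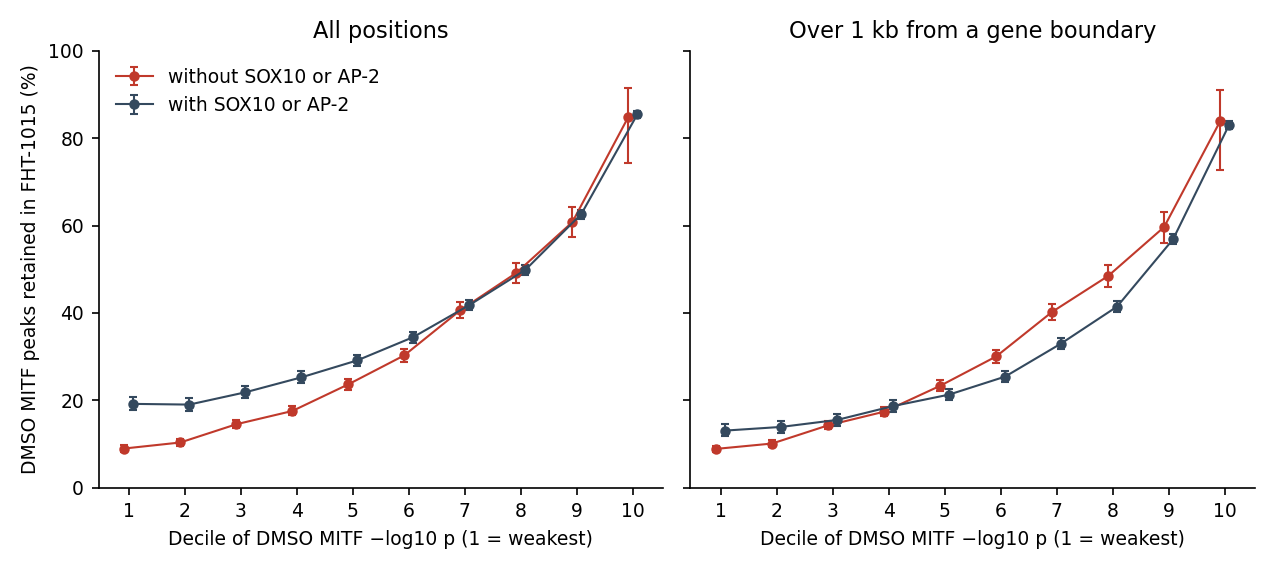
Share of DMSO MITF peaks retained in FHT-1015 by decile of DMSO MITF −log10 p, for MITF-only sites (red) and co-bound peaks (dark blue), with 95% Wilson intervals over peaks. With all positions (left) MITF-only sites lie below in the weak deciles, while among distal peaks (right) they lie above from decile 5 on, by 7.24 points in decile 7.

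The 10 strongest MITF-only sites are described singly and do not stand for the many weaker sites behind these shares. The strongest was inside PCDH15, a protocadherin gene, at chr10:54985733-54986225. Its MITF peak had a −log10 p of 139 in DMSO and 127 in FHT-1015 and a fold enrichment of 40.1 and 39.1. No SMARCA4 peak lay over it in either library, and an H3K27ac peak was listed in FHT-1015 alone, at 4.27. It ranked 1936 among all DMSO MITF peaks.

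A similar picture was seen at chr5:25119652-25120051, 475 kb from the cadherin gene CDH10, where MITF stood at 91.3 and 79.5 without SMARCA4 or H3K27ac in either library. An AP-2 peak was listed there in FHT-1015, at 7.58. Inside TGFBRAP1, which encodes a protein associated with the TGF-beta receptor, MITF at chr2:105287711-105288172 stood at 83.5 and 65.1, with H3K27ac at 3.82 in FHT-1015 only. Inside UGGT1, a glycoprotein folding sensor gene, MITF at chr2:128179235-128179688 stood at 78.8 and 51.4, with AP-2 at 3.56 in FHT-1015. Inside the cohesin gene SMC1B at chr22:45344296-45344718 MITF stood at 86.1 and 49.5. The sites inside POFUT3 and near RAB2A, both on chromosome 8, went from 96.7 to 43.5 and from 73.6 to 42.4. These 7 sites had neither SMARCA4 nor H3K27ac in DMSO, and all 7 were retained.

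The other 3 of the 10 had such a peak in DMSO and kept little MITF. Inside POR, which encodes the electron donor of the cytochrome P450 enzymes, the site at chr7:75968817-75969603 had MITF at 93.0 and 5.39, SMARCA4 at 6.66 in DMSO only and H3K27ac at 26.8 in DMSO only. The site at chr4:55686485-55687099, 49.7 kb from the neuropeptide gene NMU, had MITF at 80.4 and 3.30, SMARCA4 at 3.78 and 3.46 and H3K27ac at 6.05 in DMSO only. Inside RILPL1, which encodes a RAB-binding protein, the site at chr12:123509358-123509899 had MITF at 74.6 in DMSO and no peak in FHT-1015, with H3K27ac at 43.1 and 10.6 and SMARCA4 at 2.17 in FHT-1015 only.

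The comparison was extended to the 132 sites that had a DMSO −log10 p of at least 40. FHT-1015 MITF peaks lay over 103 of them. Of the 58 with neither SMARCA4 nor H3K27ac, 49 were retained (84.5%, 73.1 to 91.6), and 27 kept at least 50% of their DMSO fold enrichment (46.6%, 34.3 to 59.2). Of the 74 with either, 54 were retained (73%, 61.9 to 81.8), and 14 kept at least 50% (18.9%, 11.6 to 29.3). By state, 1 of 26 sites with SMARCA4 alone did (3.85%), 7 of 23 with H3K27ac alone (30.4%, 15.6 to 50.9) and 6 of 25 with both (24%, 11.5 to 43.4). The 132 include the 10 sites above, 7 of them among the 27. Without those 10, a choice made after seeing the data, the count was 20 of 51 with neither (39.2%, 27 to 52.9) and 14 of 71 with either (19.7%, 12.1 to 30.4), and these intervals overlap. At lower strength this order was not seen. Between 20 and 40, 27.8% (24 to 32) of 485 sites with neither kept at least 50%, against 31.2% (27 to 35.9) of 413 with either, and the intervals overlap. Between 10 and 20 the order was the opposite, with 34.8% (33 to 36.8) of 2422 sites with neither and 42.7% (39.3 to 46.2) of 794 with either. Co-bound peaks of at least 40 kept it in 51.7% of 230 peaks with neither and 37.5% of 10480 with either. By state the co-bound shares were 14.7% of 744 with SMARCA4 alone, 64.5% of 530 with H3K27ac alone and 37.7% of 9206 with both.

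**Figure D3:**
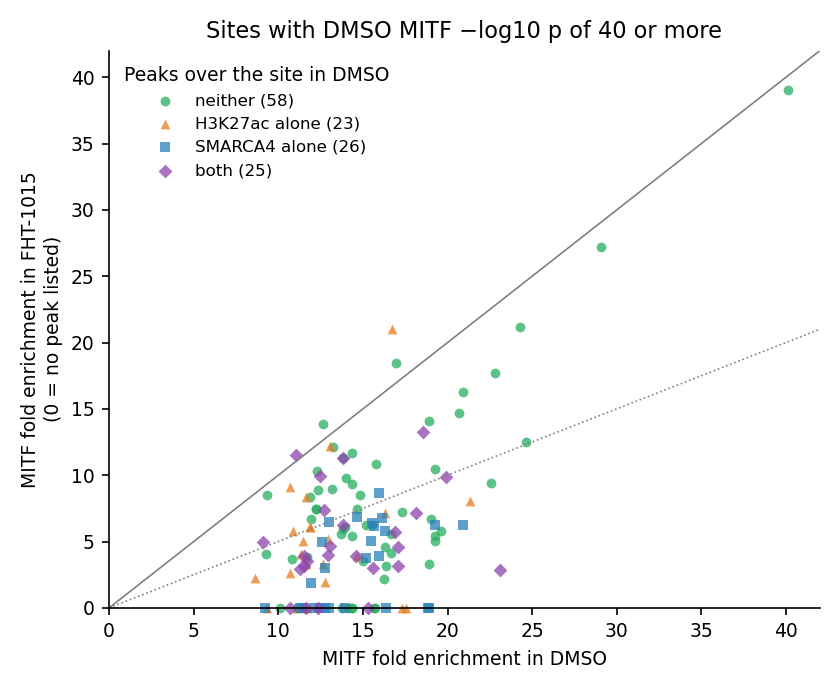
MITF fold enrichment in DMSO (horizontal) and in FHT-1015 (vertical, 0 where no peak is listed) for the 132 MITF-only sites with a DMSO −log10 p of at least 40, by the peaks over the site in DMSO. The solid line marks equal values and the dotted line 50% of the DMSO value. That 50% was reached by 27 of 58 sites with neither mark, 1 of 26 with SMARCA4 alone, 7 of 23 with H3K27ac alone and 6 of 25 with both.

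Other strong sites were lost outright. With SMARCA4 in DMSO, the highest were 99.2 kb from the pigment transporter gene SLC24A5 (chr15:48021310-48021759, MITF 64.5, SMARCA4 5.25), near PLPPR4 (63.4), inside the Golgi complex gene COG5 (61.3), near LOC124901225 (57.5) and near GMNC (55.1). Without SMARCA4, they were RILPL1, PEX26, a peroxisome gene (73.2), a site 664 kb from KLF4 (55.3), a site near CALB1 (50.8) and a site 7.61 kb from TNFSF11, which encodes RANKL (47.4). Retained with SMARCA4, besides POR and NMU, were ZNF706 (67.7 and 45.6), ERICH1 (67.5 and 5.49) and SCMH1, a polycomb gene (64.9 and 7.77).

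The sites with the highest FHT-1015 MITF values were shoulders of larger peaks. Those at GJC1, SENP6, JARID2 and CD2BP2 and one 1505 kb from SI had DMSO values of 4.80, 5.82, 4.34, 4.18 and 3.22 and FHT-1015 values of 249, 185, 184, 145 and 139. In all 5 the FHT-1015 peak also covered another DMSO MITF peak. This was so at 102 of the 7327 retained sites (1.39%) and at 3.8% of retained co-bound peaks.

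SMARCA4 and H3K27ac were scarce at MITF-only sites. In DMSO a SMARCA4 peak lay over 2986 sites (8.45%, against 45.8% of all DMSO MITF peaks), and in FHT-1015 over 2547 (7.21%, against 36.3%). An H3K27ac peak lay over 3267 sites in DMSO (9.24%, against 42% of all) and over 2302 in FHT-1015 (6.51%, against 34.4%). With every peak held to a −log10 p of at least 10, SOX10 and AP-2 peaks below that limit no longer removed a site. In that other set of 9463 sites, which included co-bound peaks, the order of the SMARCA4 shares turned, to 3.84% in DMSO and 5.56% in FHT-1015. Co-bound peaks of equal MITF strength carried SMARCA4 in 59.1% and H3K27ac in 51.8% of cases in DMSO. Both shares went up with MITF strength, from 5.70% and 7.51% of sites in decile 1 to 33.5% and 30.9% in decile 9. Boundary sites carried SMARCA4 in 30.6% and H3K27ac in 43.2% of cases in DMSO, and distal sites in 7.88% and 8.37%.

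**Figure D4:**
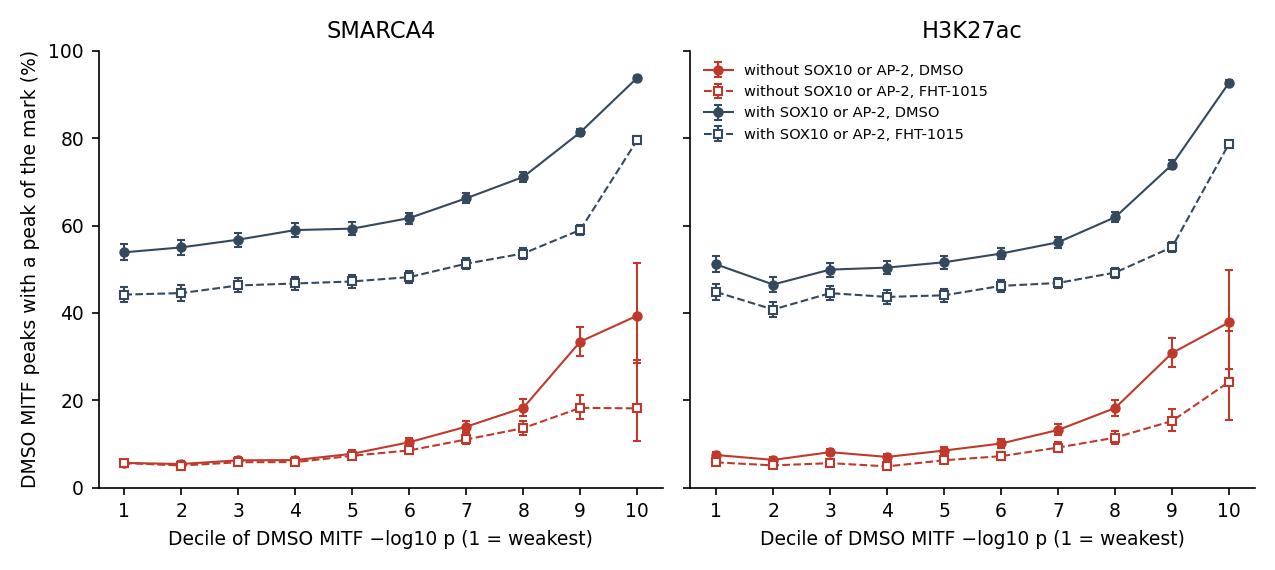
Share of DMSO MITF peaks with a SMARCA4 peak (left) or an H3K27ac peak (right) over them, by decile of DMSO MITF −log10 p, in DMSO (filled, solid) and FHT-1015 (open, dashed), with 95% Wilson intervals over peaks. MITF-only sites (red) lie below co-bound peaks (dark blue) in every decile, and in decile 9 SMARCA4 lay over 33.5% of them in DMSO and 18.3% in FHT-1015.

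SMARCA4 peaks at MITF-only sites were seldom the same in both libraries. Of the 2986 DMSO sites 1173 kept the peak in FHT-1015 (39.3%, 37.5 to 41.0), against 67.9% of all MITF peaks with SMARCA4, and 1374 other sites had it in FHT-1015 only. At equal strength of the SMARCA4 peak itself, co-bound peaks would keep it in 54.8% of cases. Of the 3267 H3K27ac sites 1868 kept the mark (57.2%, 55.5 to 58.9), against 77.1% of all MITF peaks with H3K27ac, while 67.6% were expected at equal H3K27ac strength and 434 sites had it in FHT-1015 only. At boundary sites 80% of SMARCA4 peaks and 87.7% of H3K27ac peaks were kept, and at distal sites 35.2% and 53.2%.

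MITF retention differed with these marks. The 30441 sites with neither in DMSO (86.1% of all) were retained in 18.8% of cases (18.4 to 19.3), and co-bound peaks with neither, at equal strength, also in 18.8%. Sites with SMARCA4 were retained in 34.0% and sites without it in 19.5% of cases, a difference of 14.5 points, and of 6.67 points within deciles of MITF strength. Within deciles the same difference was 1.43 points for co-bound peaks. For H3K27ac the order was the opposite, with a difference within deciles of 7.59 points at MITF-only sites and 19.4 points at co-bound peaks. Among distal peaks alone the H3K27ac differences were closer, at 6.09 points for MITF-only sites and 9.96 for co-bound peaks. Those for SMARCA4 were 6.17 and −0.26 points. The 1570 distal sites with SMARCA4 but no H3K27ac were retained in 31.8% of cases (29.6 to 34.2), against 19.3% expected from distal co-bound peaks in the same state. For the 1740 distal sites with H3K27ac alone the shares were 28.8% and 30.9%. Over all positions the observed and expected shares were 30.3% and 45.4% with H3K27ac alone and 31.7% and 20.6% with SMARCA4 alone. By what the FHT-1015 library showed, MITF was retained at 42.1% of the sites that kept SMARCA4 and at 28.8% of those that lost it, and at 39.5% and 24.4% for H3K27ac. It was retained at 47.7% of the 434 sites with H3K27ac in FHT-1015 only.

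Few SOX10 or AP-2 peaks were listed at these sites under FHT-1015. Both lists were shorter than in DMSO, with 33268 against 103379 peaks for SOX10 and 118942 against 142667 for AP-2. A SOX10 peak lay over 290 sites (0.82%, against 1.03% of all 42381 DMSO MITF peaks that lacked SOX10 in DMSO, these sites included). An AP-2 peak lay over 745 (2.11%, against 3.45% of all 46032 that lacked AP-2, these sites included). Only 11 and 111 of these peaks reached a −log10 p of 10, and 34356 sites (97.2%) had neither factor in either condition. The highest were AP-2 peaks at CCNL1 (275), LETM2 (212) and the autophagy gene RB1CC1 (162) and SOX10 peaks near TMX4 (176) and near the netrin receptor gene UNC5D (159). At CCNL1 and LETM2 the FHT-1015 MITF peak also covered another DMSO MITF peak. At RB1CC1 MITF stood at 28.6 and 27.5, and the site near UNC5D had no MITF peak in FHT-1015.

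By gene, 9719 of 20056 protein-coding genes had a MITF-only site inside or within 10 kb, and 4059 had a retained one. The genes with the most sites were long ones. MACROD2, a mono-ADP-ribosylhydrolase gene of 2058 kb, had 39 sites, the proteoglycan gene GPC5 38, the cyclic GMP-dependent kinase gene PRKG1 34, CSMD3 32, the axon guidance receptor gene ROBO2 31, the catenin gene CTNNA3 31, PCDH15 29, LRMDA, a melanocyte differentiation gene, 28, SOX5 28 and IMMP2L 27. Retained sites numbered 6 of 39 in MACROD2 (10.6 expected at equal strength), 5 of 38 in GPC5 (9.10 expected) and 13 of 31 in ROBO2 (9.16 expected). Among the genes just named only ROBO2 was above its expected number. The expected values by gene, list and chromosome came from co-bound peaks at all positions, boundary ones included. No site of MACROD2, GPC5 or ROBO2 was a boundary site. Over all distal sites 20.5% were expected from distal co-bound peaks, against 27.4% over all sites from co-bound peaks at any position.

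In the gene lists, MITF-only sites made up from 18.6% (circadian and general E-box genes) to 33.9% (MITF and TFE family and nutrient sensing genes) of the MITF peaks inside or within 10 kb. Over the whole list of peaks the share was 39.5%, which is not a like set. That list also holds peaks over 10 kb from any protein-coding gene, 42.2% of MITF-only sites and 32.8% of co-bound peaks. The Wilson interval of each list's retained share held the share expected from co-bound peaks at equal strength. The interval of the V-ATPase list lay above 28.4%, the share of all MITF-only sites at equal strength, and the intervals of the V-ATPase and circadian lists lay above the plain 20.7% of all sites. The lists were small and chosen with results known, so nothing is called particular to any of them.

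Pigment and melanosome genes had 47 sites at 18 of 24 genes, with 13 retained (27.7%, 16.9 to 41.8, 29.4% expected), beside 137 co-bound peaks. RAB38, which encodes a GTPase of melanosome transport, had 12 sites with 4 retained (3.17 expected). TYR, which encodes tyrosinase, the rate-limiting enzyme of melanin synthesis, had 7 sites with 0 retained (1.83 expected), the strongest at 8.28. AP3B1, a subunit gene of the sorting complex AP-3, had 6 sites with 2 retained (1.54 expected). Of the pair of boundary sites, that of SLC24A5 stood at 4.49 and 6.48 and that of AP3B1 at 3.59 with no peak in FHT-1015.

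Lysosome and autophagy genes had 38 sites at 20 of 34 genes, with 11 retained (28.9%, 27.3% expected). The autophagy gene UVRAG and the acid lipase gene LIPA had 6 sites each with 2 retained (1.84 and 1.52 expected). The boundary site of HEXA, a hexosaminidase subunit gene, stood at 5.24 and 4.45. V-ATPase subunit genes, which encode the proton pump of lysosomes and melanosomes, had 20 sites at 7 of 16 genes, with 10 retained (50%, 29.9 to 70.1, 33.7% expected). ATP6V1H had 7 sites with 2 retained (2.22 expected), ATP6V1C1 5 with 4 retained (1.85 expected) and ATP6V0D2 3 with 1 retained (0.80 expected). The boundary site of ATP6V1C1 stood at 22.1 and 21.5, with SMARCA4 at 11.8 and 20.2 and H3K27ac at 162 and 286. The boundary site of ATP6V1E1 stood at 5.25 and 7.39, and that of ATP6V0A1 at 5.75 in DMSO only.

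The MITF and TFE family and nutrient sensing genes had 37 sites at 9 of 16 genes, with 12 retained (32.4%, 27.1% expected), and SMARCA4 lay over 14 in DMSO and 10 in FHT-1015. MITF itself had 9 sites with 4 retained (2.53 expected). FNIP2, a folliculin partner gene, had 8 with 3 retained (2.23 expected), and TFEC, an MITF paralogue, 7 with 1 retained (2.04 expected). The boundary sites of FNIP2 stood at 5.07 and 3.27 and at 3.42 in DMSO only. Neural crest and lineage regulators had 67 sites at 7 of 15 genes, with 19 retained (28.4%, 25.9% expected). SOX5 had 28 with 6 retained (7.02 expected), SOX6 25 with 10 retained (6.85 expected) and ZEB2 5 with 2 retained (0.987 expected). The boundary site of the receptor kinase gene ERBB3 stood at 12.4 in DMSO only, while its H3K27ac peak was at 148 and 206, and that of SOX6 stood at 2.66 in DMSO only.

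G alpha q and MAP kinase genes, the pathway that drives most uveal melanomas, had 52 sites at 10 of 16 genes, with 12 retained (23.1%, 13.7 to 36.1, 29.4% expected). The protein kinase C gene PRKCE had 12 sites with 2 retained (3.33 expected). The exchange factor gene TRIO had 10 with 4 retained (2.66 expected) and GNAQ 9 with 1 retained (2.29 expected). Cell cycle and genome maintenance genes had 19 sites at 11 of 17 genes, with 6 retained (31.6%, 24.2% expected) and 0 of 19 with a −log10 p of 10. CDKN2A, an inhibitor of CDK4, had 5 sites with 4 retained (1.33 expected). CDK6 had 4 with 0 retained (0.818 expected) and FANCA 2 with 0 retained (0.484 expected). The boundary site of the inhibitor gene CDKN1A stood at 8.28 and 16.9.

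Survival, invasion and metabolism genes had 24 sites at 8 of 14 genes, with 8 retained (33.3%, 29.1% expected). The survival gene BCL2 had 6 sites with 3 retained (1.84 expected). The mitochondrial coactivator gene PPARGC1A had 6 with 1 retained (1.74 expected) and the succinate dehydrogenase gene SDHB 3 with 1 retained (0.827 expected). The boundary site of HIF1A stood at 3.40 in DMSO only. Circadian and general E-box genes had 11 sites at 11 of 15 genes, with 5 retained (45.5%, 21.3 to 72.0, 31.7% expected). The strongest were those of the nucleolin gene NCL (22.6), NR1D2 and USF2, all 3 retained and all with H3K27ac and without SMARCA4 in DMSO.

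**Figure D5:**
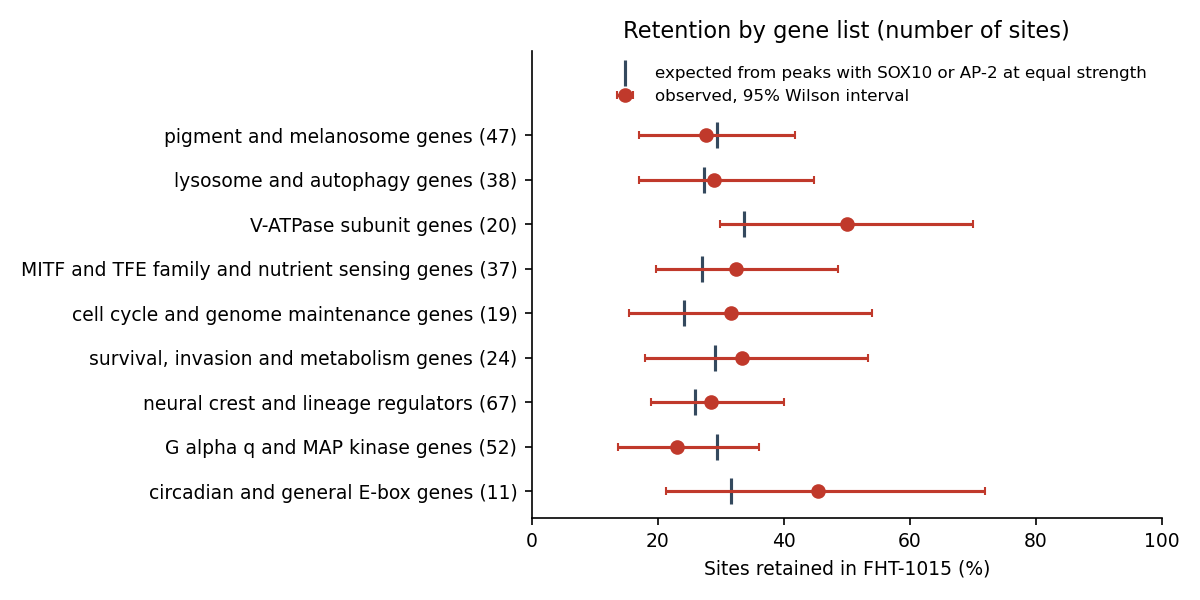
Share of MITF-only sites retained in FHT-1015 for the 9 gene lists (points, with 95% Wilson intervals over sites and the number of sites in parentheses) and the share expected from co-bound peaks at equal strength (bars). Every interval holds this expected value, and the V-ATPase list shows 50% against 33.7%.

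Depth was estimated from the lowest background of the peaks in a list, divided by the length of its shortest peak. By this estimate the MITF library of FHT-1015 had 0.854 times the depth of the DMSO library. The SMARCA4 library had 0.918 times and the H3K27ac library 1.05 times. The part of depth in the retained shares was not tested. Of the 35344 sites, 11 lay on the mitochondrial genome and 30 on unplaced contigs.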

How the data were processed

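The deposited files were peak lists of single, unpooled libraries, made with BWA, SAMtools, Picard and MACS2 on hg38, per the submitters' processing notes; versions and settings are not given in the sources used here. The titles gave each sample's group. The authors' fold enrichment (a ratio) and the −log10 p and −log10 q they gave a peak were used to describe, rank and match peaks within a list. The deposited score was not used. No genome sequence was used, so DNA is shown only from RefSeq promoter windows. Reads at a summit were recovered by solving fold and a Poisson p for a whole pileup, which came out whole within 0.01 for at least 99.998% of solved peaks in 9 of 10 narrow lists, and for 1.26% in the FHT-1015 SOX10 list, whose reads were not used.

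Overlaps needed 1 shared bp. Expected shares used deciles of DMSO −log10 p with at least 20 reference peaks. Of 20056 protein-coding genes 15843 had a start in the promoter table. The members, gene lists and tests were chosen with earlier results of these data known. Named genes were, per list, the 3 with the most sites and up to 6 with a boundary site, the 10 genes with the most sites, the 10 strongest sites, the 5 strongest retained and lost with and without SMARCA4, and the 5 with the highest FHT-1015 MITF, or SOX10 or AP-2, values. The values of 1 gene that this rule names are not reported here. Functions were tested on simulated data. Python 3.11.15, NumPy 2.4.6, pandas 2.3.3, SciPy 1.17.1 and matplotlib 3.10.9 were used.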

Additional observations from a re-analysis of the deposited data

How the results depend on the processing

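The 3 results that are differences kept their sign under the alternatives below, but the difference from expected did not always stay clear of 0. Its counting interval held 0 with a −log10 p of at least 10 for the DMSO MITF peak only (−1.95 to 1.06). The same was so for distal sites (−0.53 to 0.32) and with strength and both marks matched (−0.84 to 0.00074). The difference was above 0 with AP-2-only peaks as the reference (1.59 points) and at distal sites with a −log10 p of at least 10 (6.77 points). Of the alternatives below, 14 of 63 values for the 8 main results stayed within the counting interval of the main value. No paired analysis was possible because each group had 1 library. Libraries could not be left out for the same reason, and no result carries a test.

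When the FHT-1015 peaks had to cover 50% of the site, 17.7% of sites were retained, −4.65 points from the expected share, and the difference with minus without SMARCA4 was 12.1 points. With FHT-1015 summits within 200 bp, 19.6% were retained, −3.84 points from expected. With FHT-1015 peaks that shared no base with another DMSO MITF peak, chosen after seeing the data, the difference from expected was −4.90 points.

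With a −log10 p of at least 10 for every peak, SOX10 and AP-2 peaks below that limit no longer removed a site. The rule then gave 9463 sites, while only 4246 MITF-only sites of the main rule reached 10. The larger set thus included peaks that the main rule calls co-bound. Of the 9463 sites 18.5% were retained, −9.44 points from expected, SMARCA4 lay over 3.84% in DMSO and 5.56% in FHT-1015, and H3K27ac over 19.3% and 13.3%. Distal minus boundary was then −33.0 points and with minus without SMARCA4 22. The SMARCA4 share was thus higher in FHT-1015 than in DMSO under this rule and lower under the main one. With that limit for the DMSO MITF peak only, 49.5% of 4246 sites were retained, −0.45 points from expected, SMARCA4 lay over 19.6% and 13.4%, H3K27ac over 18.8% and 11.4%, and the differences were −22.9 and 7.96 points.

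With only SOX10 and AP-2 peaks of q under 0.05 removing sites, SMARCA4 lay over 8.96% and 7.62% and H3K27ac over 9.79% and 6.88%. With no such peak within 500 bp, 20.1% were retained, −7.20 points from expected, SMARCA4 lay over 5.74% and 4.42%, H3K27ac over 4.88% and 3.24%, and distal minus boundary was −6.38 points. The broad lists gave SMARCA4 at 12.5% and 10.0% and H3K27ac at 10.8% and 7.69%. Sites whose MITF summit lay inside the other peak were 6.04% and 5.31% for SMARCA4 and 7.36% and 5.39% for H3K27ac.

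The difference from expected was −11.1 points with deciles of fold, −2.70 against all DMSO MITF peaks, and −0.66 with strength and position matched. Chosen after seeing the data, it was −0.11 for distal sites, −1.35 with either end of every gene as boundary and −0.43 with strength and both marks matched. With minus without SMARCA4 was 8.69 points within deciles of fold and 6.67 within deciles of −log10 p. The cause of these shifts was not tested.

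Of the 100 strongest sites 83% were retained, and 70% with 50% cover. With the site's summit inside the promoter window, CATGTG was in 41.8% and TCATGTG in 25.3% of 91 windows. The median MITF-only site rested on 10 reads, and the part of depth was not tested.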

Other observations

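MITF-only sites were unevenly spread over chromosomes as a share of each chromosome's DMSO MITF peaks. Among the autosomes the share was lowest on chromosome 19, at 25.4% of 2149 peaks, and highest on chromosomes 13 and 18, at 45.8% of 3106 and 45.8% of 2363 peaks. Chromosome 19 also had the highest retained share of its MITF-only sites among the autosomes, 31.5% against 28.4% expected at equal strength, and chromosome 13 had 18% against 26.1%. These expected shares came from co-bound peaks at all positions and were not matched on position relative to genes. On the mitochondrial genome 11 of 12 MITF peaks were MITF-only, and on chromosome Y 0 of 1.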
